A study of Homo sapiens with 5 samples.

Results

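KRTAP3-1, TMEM59L and ZNF804A are 3 of the 20026 genes with FPKM values (fragments scaled to transcript length in kilobases and to the depth of the library) in ELK4 knockdown and control HCT116 cells. They were chosen from these values, as genes lower in every knockdown sample than in both controls and outside the main pathways, so their lower level is a description here and is given without a test. HCT116 cells are an established line from a human colorectal carcinoma. The 2 control samples carry the pLKO.1 lentiviral vector, and the 3 knockdown samples (shELK4_1, shELK4_2 and shELK4_3) each carry a different hairpin against ELK4 in that vector, after puromycin selection of stable cells. Each hairpin is represented by 1 sample, so the error of a single hairpin is not known, and for any hairpin the loss of ELK4 and its other effects cannot be told apart. The labels do not say whether the pLKO.1 samples came from separate infections, so the p-values measure only the spread between these samples, which may be technical. In bulk RNA, fewer cells expressing a gene and less of its RNA per cell cannot be told apart.

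The 3 genes have no known pathway in common. KRTAP3-1 encodes a keratin-associated protein, one of a large family of small cysteine- or glycine-rich and tyrosine-rich proteins that cross-link the hair keratins in the matrix of the hair shaft, and its known site of expression is the hair follicle rather than the colon. TMEM59L encodes a membrane glycoprotein of the Golgi and endosomes found mainly in the brain, where it has been tied to the trafficking of the amyloid precursor protein, and its paralog TMEM59 is a widely expressed Golgi and endosomal protein. ZNF804A encodes a nuclear protein with a single C2H2 zinc finger, best known from a common variant associated with schizophrenia. ELK4 is an ETS transcription factor of the ternary complex group, which binds DNA at sites with a GGAA core and is known for its partnership with SRF.

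The targeted gene and the cell type markers came first. ELK4 fell from an FPKM of 8.62 and 7.60 in the controls to 3.14, 2.82 and 2.44 in shELK4_1, shELK4_2 and shELK4_3 (log2 fold change of FPKM + 1, −1.26 ± 0.12 SE, adjusted p = 0.029 from limma). With 1 sample left out at a time, ELK4 stayed past the threshold only without shELK4_2 (adjusted p = 0.0366 from limma), and the groups did not overlap in any case. Over the 10780 tested genes (FPKM 1 or higher in 2 or more samples), 0.167% had an adjusted p under 0.05 from limma, 0.0649% on the lower side alone, and the knockdown samples all lay below both controls for 21.0% and above both for 19.1%. The first share rests on 18 genes and depends on single samples, as the count was 95 without shELK4_2, 1 without shELK4_3 and 0 without shELK4_1 or either control, and 0 with no FPKM limit. The FPKM values summed to between 309139 and 319870 in a sample. EPCAM, an epithelial surface protein, had an FPKM of 118.4 to 165.7, and the defining markers of leukocytes (PTPRC, CD3E) and of endothelial cells (PECAM1, CDH5) were at 0.0107 FPKM or less. COL1A1, a fibroblast collagen, was present at 3.10 and 3.30 FPKM in the controls and at 3.45 to 4.21 with the hairpins (adjusted p = 0.449 from limma), while DCN, a fibroblast proteoglycan, was at 0.008 FPKM or less. Of 5 epithelial markers, 3 (KRT8, KRT18 and KRT19, keratins of simple epithelia) were lower without overlap and at an unadjusted p under 0.05 from limma, where 8.14% of all tested genes were lower at that p, and none (0) had an adjusted p under 0.05. KRT18 had an FPKM of 639.4 and 633.5 in the controls and of 396.5, 215.8 and 303.3 with the hairpins (adjusted p = 0.117 from limma). KRT8 had 1070.7 and 1072.3 in the controls and 792.2, 583.1 and 670.0 with the hairpins (adjusted p = 0.108 from limma), and KRT19 stood at 71.9% of its control mean. EPCAM and CDH1, the epithelial cadherin, overlapped between the groups, with log2 fold changes of −0.17 and −0.40. The part of these epithelial markers in the results that follow was not tested.

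KRTAP3-1 (ENSG00000212901, GRCh38 chromosome 17, 41008521 to 41019324, minus strand) was close to 0 with each hairpin. The pLKO.1 samples had an FPKM of 9.26 and 10.8, against 0.380, 0.136 and 0.945 for shELK4_1, shELK4_2 and shELK4_3. The groups did not overlap, and the lower control was 9.79 times the highest knockdown sample. The control mean was 10.0 ± 1.11 (SD, n = 2) and the knockdown mean 0.487 ± 0.415 (SD, n = 3), or 4.85% of it. On the log2(FPKM + 1) scale the difference was −2.93, the lowest among the tested genes (rank 1), and as a log2 ratio of mean FPKM it was −4.37. In the controls the gene was no rarity, since its level exceeded that of 55.4% of the tested genes.

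The coding transcript of KRTAP3-1 is short, 608 bases in a single exon, so few fragments stand behind the knockdown values. FPKM values carry no counts, so the worth of 1 fragment was estimated from genes below 0.5 FPKM with 1 RefSeq transcript. Their most common ratio near 1 between a sample and shELK4_2 was taken as the ratio for equal numbers of fragments. This ratio was held by 42 to 64 of 386 to 403 such genes within 0.075 on the log2 scale. At it, 1 fragment was worth 0.913 and 0.988 times as much in the pLKO.1 samples as in shELK4_2, 0.937 times in shELK4_1 and 0.988 times in shELK4_3. Only ratios near 1 were searched, so these figures do not show how alike the depths of the samples were. In these units the KRTAP3-1 values of shELK4_1, shELK4_2 and shELK4_3 stood as 2.99 to 1 to 7.04, close to 3, 1 and 7. The 1 of shELK4_2 is set by the unit, and the number of fragments behind it is not known. The pLKO.1 values corresponded to about 75 and 81 such steps. If a step is 1 fragment, the 95% exact Poisson intervals are 0.619 to 8.77, 0.0253 to 5.57 and 2.81 to 14.4 fragments in the knockdown samples and 59.0 to 94.0 and 64.3 to 100.7 in the controls, and cover counting error only. Under that condition the intervals of the 3 hairpins overlapped one another. The gene was chosen for its lower knockdown values, so the intervals are not a test of the difference between the groups. Reads shared with other genes were rare for KRTAP3-1, as no exon of another gene overlaps it and 1.3% of its 50-base words occur in another annotated gene.

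TMEM59L (ENSG00000105696, GRCh38 chromosome 19, 18607430 to 18621039, plus strand, 8 exons in the canonical transcript) was present at 12.9 and 13.5 FPKM with the empty vector. With the hairpins it was at 5.07, 3.38 and 4.86 FPKM (shELK4_1, shELK4_2 and shELK4_3). Every knockdown sample lay below both controls, which were close together, and the lower control was 2.55 times the highest knockdown sample. The mean went from 13.2 ± 0.436 (SD, n = 2) to 4.44 ± 0.922 (SD, n = 3), or 33.6% of the control level, a difference of −1.40 on the log2(FPKM + 1) scale. The sources used here do not give the strandedness of the libraries.

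ZNF804A (ENSG00000170396, GRCh38 chromosome 2, 184598529 to 184939492, plus strand, 4 exons) was the least expressed of the 3 in the controls, with an FPKM of 3.98 and 3.60. The hairpins gave 1.56, 0.935 and 1.38 in the same order, again without overlap between the groups. The control mean was 3.79 ± 0.272 (SD, n = 2) and the knockdown mean 1.29 ± 0.321 (SD, n = 3), or 34.1% of it. The difference was −1.07 on the log2(FPKM + 1) scale, where low values are compressed, and −1.55 as a log2 ratio of mean FPKM. On the latter scale ZNF804A and TMEM59L (−1.58) had close values, ranking 12 and 11 from the lowest of all tested genes, whereas on the former they ranked 23 and 7. An annotated gene on the opposite strand (ENSG00000283839) covers 8.9% of the exonic bases of ZNF804A, and 6.9% of the 50-base words of ZNF804A occur in other annotated genes.

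**Figure D1:**
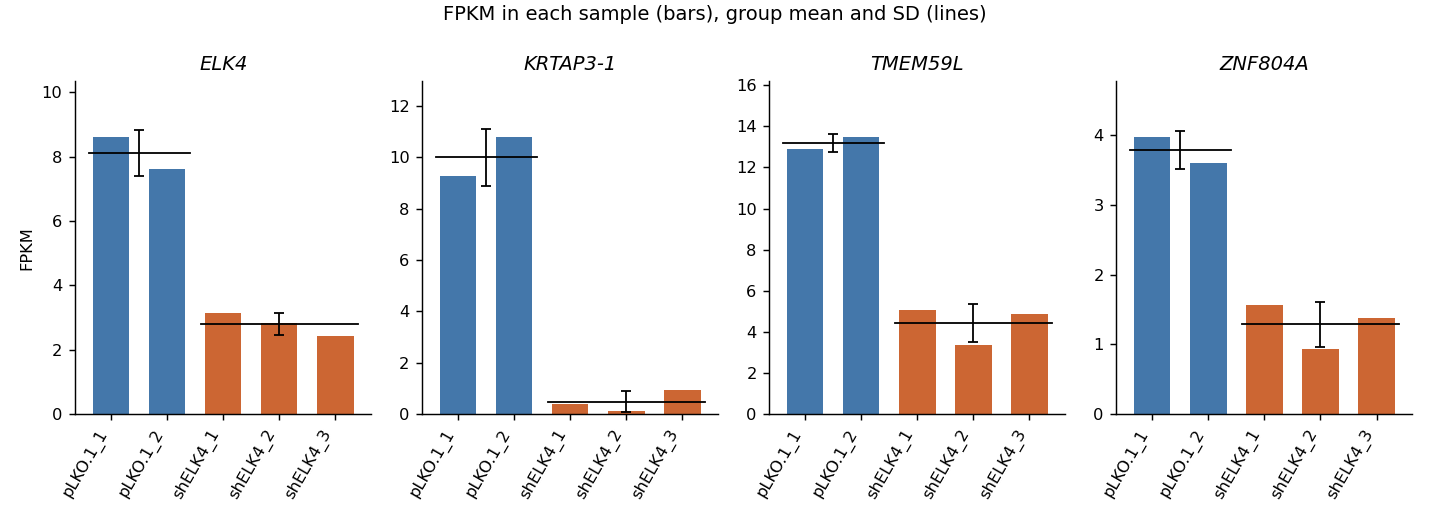
FPKM of ELK4, KRTAP3-1, TMEM59L and ZNF804A in each sample (bars, blue for pLKO.1 and orange for shELK4), with the mean and SD of each group as black lines. All 4 genes are lower in each of the 3 knockdown samples than in both controls, and KRTAP3-1 stays at 0.945 FPKM or less.

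The remaining level was then set beside that of ELK4 for each hairpin. ELK4 stood at 38.7% of the mean of the controls in shELK4_1, 34.8% in shELK4_2 and 30.1% in shELK4_3, so that shELK4_3 had the least ELK4 mRNA. None of the 3 genes followed this order. TMEM59L stood at 38.4%, 25.6% and 36.8% with the same hairpins and ZNF804A at 41.1%, 24.7% and 36.3%, both lowest in shELK4_2 and highest in shELK4_1. KRTAP3-1 stood at 3.78%, 1.35% and 9.41%, lowest in shELK4_2 and highest in shELK4_3, the hairpin with the lowest ELK4. If a step is 1 fragment, its Poisson intervals overlapped between the hairpins. The part of counting error in its order was not tested. ELK4 itself varied by 1.29 times between the hairpins, against 1.13 times between the controls, so the range of ELK4 levels was narrow and no relation can be tested over 3 samples. TMEM59L varied by 1.5 times between hairpins and ZNF804A by 1.67 times, both more than between the controls (1.05 and 1.11 times). These ratios of highest to lowest value cover 3 hairpins but 2 controls, and a range over more samples tends to be wider. shELK4_2 was also the lowest hairpin for 42.5% of the 2261 tested genes whose knockdown samples all lay below the controls, against 28.7% for shELK4_1 and 28.8% for shELK4_3. The part of this sample in the order of the hairpins was not tested. With shELK4_2 left out, the differences on the log2(FPKM + 1) scale were −2.75 for KRTAP3-1, −1.25 for TMEM59L and −0.96 for ZNF804A. Their sign is fixed by the choice of genes lower with every hairpin, and they do not bear on the order.

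**Figure D2:**
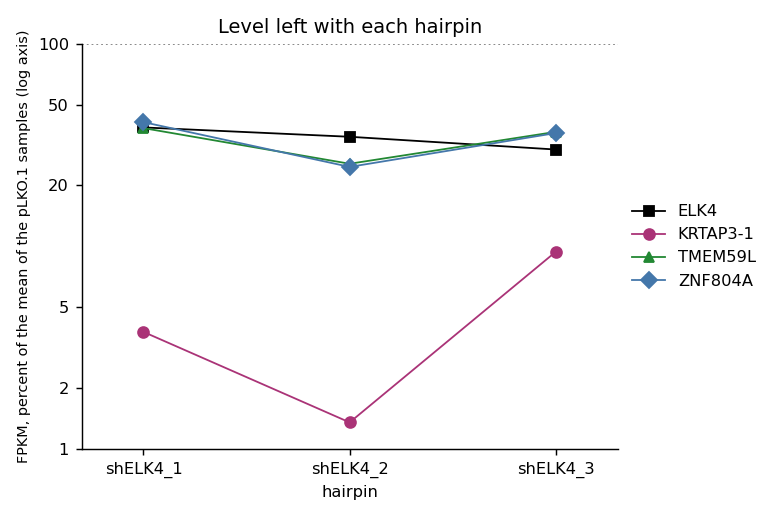
FPKM left with each hairpin as a percentage of the mean of the 2 pLKO.1 samples (log axis; the dotted line marks 100%; lines only join the values of a gene). ELK4 goes from 38.7% in shELK4_1 to 30.1% in shELK4_3, while KRTAP3-1, TMEM59L and ZNF804A are lowest in shELK4_2.

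The promoters of the 3 genes and of KRTAP2-3 are shown because ELK4 is a DNA-binding factor and the members were lower together. The sequences are from RefSeq on GRCh38.p14 and run 5′ to 3′ on the strand of the gene, from 250 bases before the annotated start to 20 bases after it. They cover 1 start per gene. For KRTAP3-1 and TMEM59L the gene bounds given above reach further upstream than this window, and starts there were not searched. Capitals mark matches to the ETS site CCGGAAG, the GC box GGGCGG of SP1 and related factors, the TATA box TATATAA, the cAMP response element (CRE) TGACGTCA, the CCAAT box and the SRF-binding CArG box, searched on both strands over the window up to 50 bases after the start, so that CCGCCC and ATTGG are a GC box and a CCAAT box of the other strand.
KRTAP3-1, chr17:41009109-41009378, minus strand: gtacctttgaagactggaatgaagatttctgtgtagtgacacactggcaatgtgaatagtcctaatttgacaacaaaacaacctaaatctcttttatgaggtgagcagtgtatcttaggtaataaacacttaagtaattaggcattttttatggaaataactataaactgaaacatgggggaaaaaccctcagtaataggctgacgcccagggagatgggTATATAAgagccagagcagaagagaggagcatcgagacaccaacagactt
KRTAP2-3, chr17:41060095-41060364, minus strand: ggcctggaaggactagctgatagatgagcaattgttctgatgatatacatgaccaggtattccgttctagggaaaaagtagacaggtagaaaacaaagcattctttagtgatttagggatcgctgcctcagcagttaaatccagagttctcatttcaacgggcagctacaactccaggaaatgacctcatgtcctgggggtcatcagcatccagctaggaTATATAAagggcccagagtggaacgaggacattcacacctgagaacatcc
TMEM59L, chr19:18612620-18612889, plus strand: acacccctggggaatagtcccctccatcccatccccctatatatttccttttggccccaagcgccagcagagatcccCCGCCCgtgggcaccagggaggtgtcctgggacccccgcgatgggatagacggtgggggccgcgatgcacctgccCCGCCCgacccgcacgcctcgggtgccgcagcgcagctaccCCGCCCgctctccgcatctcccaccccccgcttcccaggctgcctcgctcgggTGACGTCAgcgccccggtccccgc
ZNF804A, chr2:184598279-184598548, plus strand: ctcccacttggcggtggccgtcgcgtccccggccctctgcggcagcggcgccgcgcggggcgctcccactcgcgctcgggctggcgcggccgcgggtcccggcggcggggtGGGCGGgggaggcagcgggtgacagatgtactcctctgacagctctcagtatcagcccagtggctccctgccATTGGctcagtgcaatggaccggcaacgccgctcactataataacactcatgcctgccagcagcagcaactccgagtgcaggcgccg

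The full ETS site CCGGAAG and the CArG box, found in 10.3% and 1.29% of 35116 RefSeq promoter windows of the same length, had no match in any of the 4 windows. The shorter GGAA core was not searched, and it occurs in the printed sequences of KRTAP3-1, KRTAP2-3 and TMEM59L. KRTAP3-1 and KRTAP2-3 each had a TATA box beginning at position -30, a motif found in 2.57% of the windows, and no GC box. TMEM59L had 3 GC boxes, beginning at -173, -98 and -57, and a CRE beginning at -4. ZNF804A had 1 GC box at -139 and a CCAAT box at -67. The GC box occurs in 45.0% of the windows, the CRE in 1.85% and the CCAAT box in 34.6%, and the matches shown do not overlap one another. The GC content of the window was 40.0% for KRTAP3-1 and 47.3% for KRTAP2-3, against 72.0% for TMEM59L, 72.3% for ZNF804A and a median of 58.7% over all windows. A match is a match of letters only, and a window without one says nothing about binding elsewhere.

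The keratin-associated protein family was nearly silent in these cells apart from KRTAP3-1 and KRTAP2-3. Of 93 KRTAP genes in the files, 80 were listed at 0 in every sample, 13 were above 0 in at least 1 sample and 2 reached the FPKM limit for testing. KRTAP2-3, another matrix protein gene of the same cluster 50.7 kb away, was the highest of them, with 25.6 and 32.8 FPKM for pLKO.1 and 6.02, 10.0 and 4.97 FPKM for shELK4_1, shELK4_2 and shELK4_3. The groups did not overlap, and the knockdown mean was 24.0% of the control mean. Its log2 fold change was −1.96 ± 0.26 (SE) with an adjusted p of 0.0568 from limma, short of the threshold. Without shELK4_2, in which KRTAP2-3 was highest among the hairpins, the adjusted p was 0.0134 from limma (log2 fold change −2.21). In shELK4_2, therefore, KRTAP3-1 had its lowest value and KRTAP2-3 its highest value among the hairpins. The Poisson intervals of KRTAP3-1, however, overlapped between the hairpins if a step is 1 fragment. KRTAP2-3 shares 39.5% of its 50-base words with KRTAP2-4, so reads could be split between them, although KRTAP2-4 was listed at 0.230 and 0.363 FPKM in the controls and at 0, 0 and 0.122 with the hairpins. No other KRTAP gene exceeded 0.382 FPKM in any sample. KRTAP3-2 was listed at 0.0816 in shELK4_1 and at 0 elsewhere, and KRTAP3-3 at 0 in every sample, so of the KRTAP3 genes only KRTAP3-1 was expressed above that level.

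The other KRTAP genes that reached 0.1 FPKM in a sample were scattered over both groups. KRTAP2-2 was listed at 0 and 0.144 in the controls and at 0.271, 0.292 and 0.145 with the hairpins, KRTAP4-7 reached 0.179 in shELK4_2, KRTAP4-12 0.173 in a control and KRTAP1-1 0.172 in shELK4_3. KRTAP5-6 reached 0.382 in shELK4_3 and was at 0 elsewhere, KRTAP5-8 reached 0.191 in a control, and KRTAP5-9 ranged from 0.0595 to 0.193. Values of this size correspond to very few fragments, and no direction is read from them.

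KRTAP3-1 and KRTAP2-3 lie in the type I keratin cluster of chromosome 17, and the region within 1 Mb of KRTAP3-1 was looked at after the values had been seen. Of 61 keratin and KRTAP genes there, 34 were listed at 0 in every sample and 10 reached 1 FPKM in 1 sample or more. Since the region was chosen for its lower genes and holds KRTAP3-1 itself, no count by direction is read from it. KRT34, a hair keratin, lies 369.1 kb from KRTAP3-1. Its FPKM was 1.02 and 0.898 in the controls, against 0.0633, 0.249 and 0 with the hairpins, and it missed the limit for testing. KRT20, an intestinal keratin, had 1.07 and 1.23 FPKM in the controls, against 0.885, 0.400 and 0.277 with the hairpins (unadjusted p = 0.0221 from limma, log2 fold change −0.52). KRT19, a keratin of simple epithelia, went from 750.0 ± 30.6 (SD, n = 2) to 539.6 ± 67.1 FPKM (SD, n = 3), with an adjusted p of 0.139 from limma. In contrast, KRT13 had a higher FPKM in every knockdown sample (0.436 and 0.274 in the controls, 2.93, 0.794 and 0.471 with the hairpins), KRT23 overlapped between the groups, and KRT15 did as well. The lower values were therefore not shared by every expressed gene of the cluster.

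**Figure D3:**
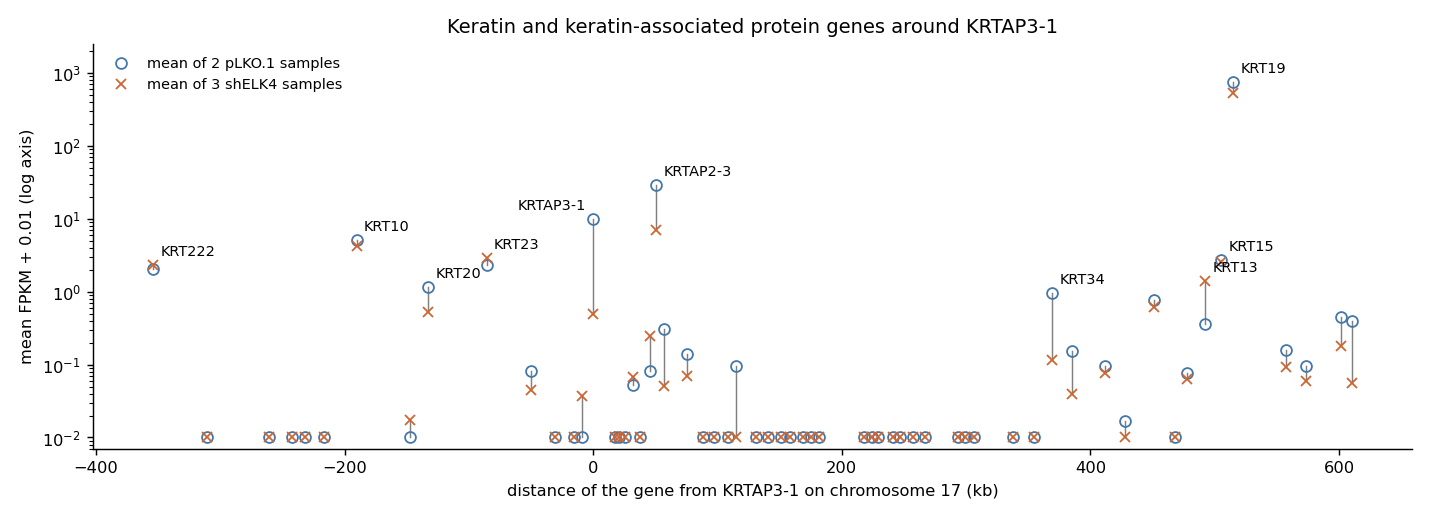
Mean FPKM + 0.01 (log axis) of the 61 keratin and KRTAP genes around KRTAP3-1 in the 2 pLKO.1 samples (circles) and the 3 shELK4 samples (crosses), by distance from KRTAP3-1 in kb, with genes of mean FPKM 0.9 or more in a group named. KRTAP3-1 and KRTAP2-3 stand above the other KRTAP genes of the cluster, which are at or near 0 (genes listed at 0 lie on the 0.01 line). KRT23, a nearby keratin gene, has a mean of 2.30 FPKM for pLKO.1 and 2.87 for shELK4, the latter above KRTAP3-1. KRT19 is the most expressed gene of the region.

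The relatives of TMEM59L and ZNF804A either overlapped between the groups or were higher in the knockdown samples. TMEM59 had 7.88 and 7.69 FPKM for pLKO.1 and 8.93, 2.95 and 7.51 FPKM for shELK4_1, shELK4_2 and shELK4_3. Only shELK4_2 lay far below the controls, and shELK4_1 lay above both. Its log2 fold change was −0.34 ± 0.37 (SE, adjusted p = 0.684 from limma) and turned to 0.07 (adjusted p = 0.750 from limma) without shELK4_2. The knockdown mean was 83.0% of the control mean for TMEM59 against 33.6% for TMEM59L. Of the relatives of ZNF804A, ZNF804B was listed at 0 in all 5 samples. GPATCH8, a related zinc finger protein with a G-patch domain, had 3.21 and 3.31 FPKM in the controls, against 3.72, 4.01 and 3.80 with the hairpins, higher in all 3 (log2 fold change 0.18 ± 0.09 SE, adjusted p = 0.363 from limma).

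**Figure D4:**
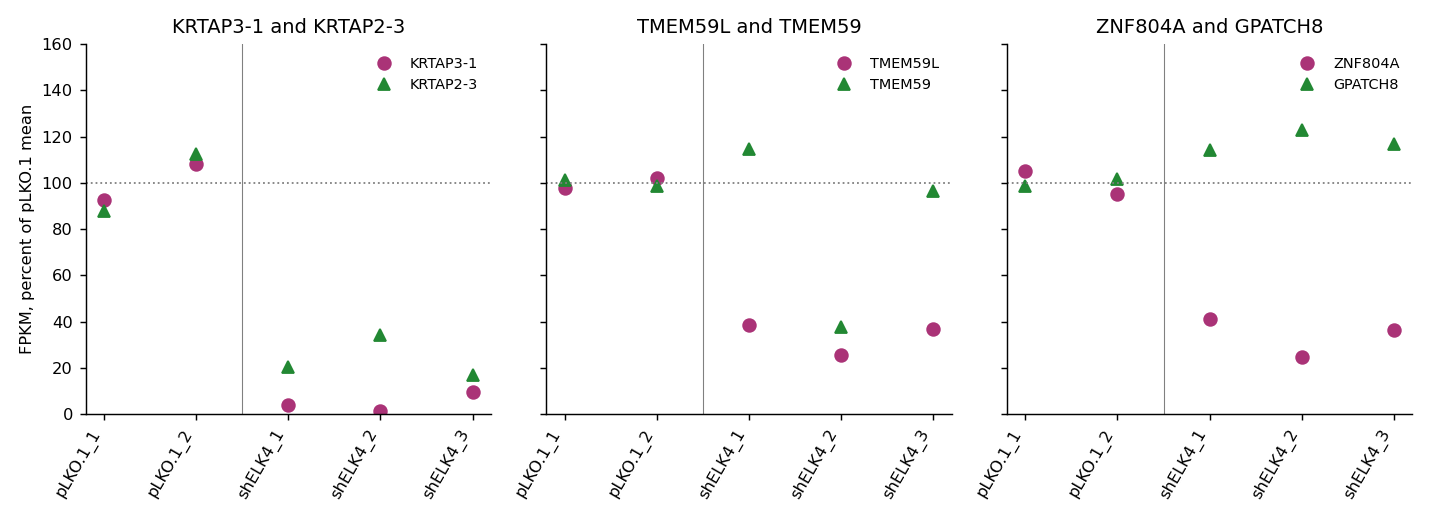
FPKM in each sample as a percentage of the mean of the pLKO.1 samples for each gene (circles) and a gene of its family (triangles). TMEM59 is far below 100% in shELK4_2 only, GPATCH8 lies above 100% in all 3 knockdown samples, and KRTAP2-3 lies below the controls with each hairpin, as does KRTAP3-1.

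The 5 protein-coding genes nearest on each side in the RefSeq table were compared next, to see whether a whole stretch of chromosome moved. Of the 30 neighbours, 29 were in the files and 15 were tested. None (0) had an adjusted p or an unadjusted p under 0.05 from limma, where 8.14% of all tested genes were lower and 8.08% higher at an unadjusted p under 0.05, so a count of 0 among so few genes does not show that the stretches were unaltered. Around TMEM59L, 8 of 10 neighbours were tested and their median log2 fold change was −0.07, against −0.01 over all tested genes. KLHL26, 16.0 kb away, had 5.82 and 5.17 FPKM in the controls, against 5.02, 4.93 and 5.57 with the hairpins. REX1BD and UPF1 were lower without overlap by small amounts (log2 fold changes −0.17 and −0.16), and FKBP8 and CRTC1 higher (0.15 and 0.31). ZNF804A lies in a gene-poor stretch, 1436.8 kb from NUP35 on one side and 797.6 kb from FSIP2 on the other. NUP35, a nucleoporin, ranged from 6.92 to 9.34 FPKM with overlap, and FSIP2, a sperm sheath protein gene, was listed at 0 in every sample. The median over the 6 tested neighbours of ZNF804A was −0.05, and only DNAJC10, an endoplasmic reticulum chaperone, was lower without overlap (log2 fold change −0.12). Of the 10 neighbours of KRTAP3-1, 6 were listed at 0 in every sample, and only KRT23, a keratin of simple epithelia, was tested (log2 fold change 0.16).

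**Figure D5:**
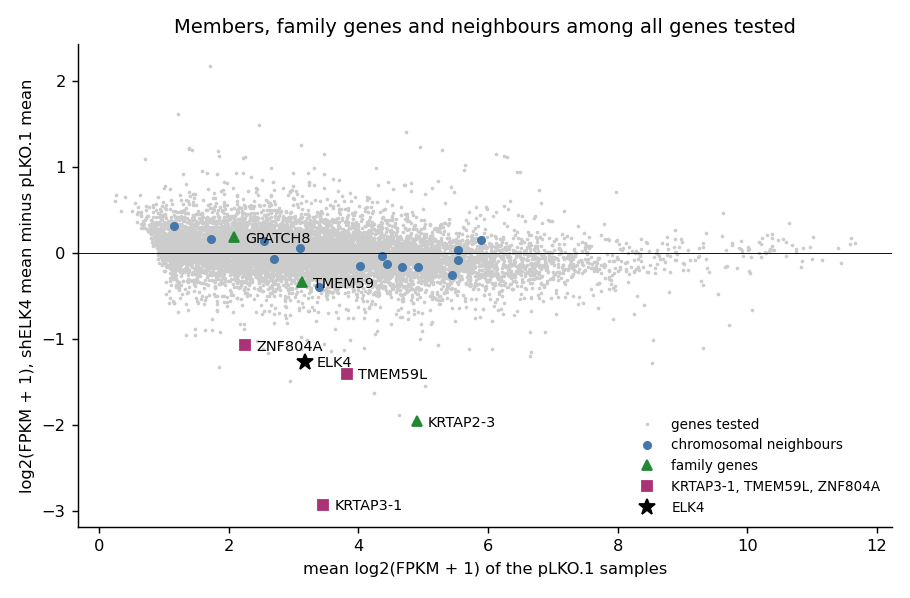
Difference of the group means of log2(FPKM + 1), shELK4 minus pLKO.1, against the mean of the pLKO.1 samples for the 10780 tested genes (grey), with KRTAP3-1, TMEM59L and ZNF804A (squares), genes of their families (triangles), their chromosomal neighbours (circles) and ELK4 (star). The tested neighbours lie close to 0, and KRTAP3-1 lies at −2.93.

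Lists of genes tied to the members by tissue or function were then described. Of 17 hair keratins, the filament proteins that KRTAP proteins cross-link, 5 were listed at 0 in every sample and only KRT81 was tested. The hairpins gave 1.03, 2.19 and 0.136 FPKM, on both sides of the controls, which had 1.15 and 1.21 FPKM. HOXC13, a homeobox factor that activates hair keratin genes, had a control mean of 2.44 FPKM and 2.61, 2.67 and 4.13 with the hairpins (log2 fold change 0.25, adjusted p = 0.50 from limma). Of the hairpins, shELK4_1 and shELK4_2 lay close to the higher control. MSX2, a BMP-induced homeobox factor of the hair matrix, was tested too and ranged from 20.6 to 48.3 FPKM in the knockdown samples, on both sides of the controls (31.4 and 30.7). The other 6 genes of this list, among them FOXN1 and the gene of trichohyalin, missed the limit for testing.

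All 13 genes of the amyloid precursor protein family and its processing were tested, and none (0) had an adjusted p under 0.05 from limma. At an unadjusted p under 0.05, APLP2 was lower and BACE1 higher, 1 gene in each direction, where 8.14% and 8.08% of all tested genes were. APLP2, a homolog of the amyloid precursor protein, had 88.4 and 91.2 FPKM in the controls, against 81.2, 53.5 and 60.6 with the hairpins. BACE1, the beta-secretase, had 1.38 and 1.51 FPKM in the controls, against 1.95, 1.83 and 2.96 with the hairpins. PSENEN, a subunit of gamma-secretase, had a log2 fold change of −0.27 with overlap. APP itself had 74.7 and 72.6 FPKM in the controls, against 62.4, 72.5 and 50.7 with the hairpins (log2 fold change −0.26, adjusted p = 0.426 from limma).

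TMEM59L and ZNF804A are best known from the brain, so other neuronal genes were described beside them. Of 24 such genes, 5 were listed at 0 in every sample, 6 were tested and none (0) had an adjusted p under 0.05 from limma, with 2 higher and 0 lower at an unadjusted p under 0.05, where 8.08% and 8.14% of all tested genes were. The median log2 fold change of the 6 was 0.32. SCG2, a granin of secretory granules, had 2.02 and 2.58 FPKM in the controls, against 12.9, 29.6 and 6.67 with the hairpins (log2 fold change 2.17 ± 0.52 SE, adjusted p = 0.136 from limma), the opposite direction to TMEM59L and ZNF804A. ENO2, the neuronal enolase, had 9.80 and 9.68 FPKM in the controls, and 9.17 in shELK4_2 against 16.2 and 18.6 in the other knockdown samples. SYT1, a calcium sensor of synaptic vesicles, had 5.59 and 5.76 FPKM in the controls, against 8.22, 8.41 and 7.95 with the hairpins (adjusted p = 0.0997 from limma). MAP2, a dendritic microtubule protein, was lower without overlap, with 1.19 FPKM in both controls and 0.767 to 1.02 with the hairpins (adjusted p = 0.399 from limma). REST, the repressor of neuronal genes, and its corepressors were all tested (9 genes), with a median of 0.01. REST itself, given for its role and not for the size of its difference, had 8.13 and 7.56 FPKM in the controls, against 8.38, 6.88 and 7.78 with the hairpins. RCOR2, a corepressor of the REST complex, was higher with each hairpin (3.32 and 3.42 against 4.82, 5.19 and 5.55 FPKM, adjusted p = 0.102 from limma), as was HDAC2, a histone deacetylase, by less (log2 fold change 0.14, adjusted p = 0.435 from limma). Of 4 genes tied to ZNF804A in earlier work on overexpression, PRSS16 overlapped between the groups and DRD2 was at or near 0. PDE4B, a cAMP phosphodiesterase, had 8.60 and 7.57 FPKM in the controls, against 11.6, 13.4 and 9.52 with the hairpins (log2 fold change 0.45, adjusted p = 0.221 from limma).

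Finally, the genes whose pattern was most like each of the 3 were listed by Pearson's r of log2(FPKM + 1) over the 5 samples, among 465 tested genes whose group means differed by at least 0.5 on this scale. With 5 samples in 2 groups, r is dominated by the difference between the groups and is a description only. The closest to KRTAP3-1 were RNASEK (r = 0.998), NPTN (0.996) and HOXA3 (0.996). RNASEK, an endoribonuclease associated with the vacuolar ATPase, had 163.4 and 168.1 FPKM in the controls, against 105.9, 105.9 and 117.8 with the hairpins, and shares with KRTAP3-1 the highest knockdown value in shELK4_3. NPTN, the cell adhesion protein neuroplastin, had 23.3 and 23.9 in the controls and 15.6, 15.7 and 16.8 with the hairpins. HOXA3, a homeobox factor, was at 1.60 and 1.49 in the controls and at 0.269, 0.212 and 0.480 with the hairpins. The closest to TMEM59L were TMEM50A (0.999), the readthrough entry TGIF2-C20orf24 (0.996) and CLOCK (0.996), and the closest to ZNF804A were CLOCK (0.999), TMEM50A (0.996) and TNFRSF10C (0.995). CLOCK, a core circadian transcription factor, had 18.8 and 18.1 FPKM in the controls, against 10.5, 8.16 and 9.61 with the hairpins (log2 fold change −0.91 ± 0.12 SE, adjusted p = 0.0568 from limma). TNFRSF10C, a decoy receptor for TRAIL, had 8.08 and 7.33 in the controls and 3.80, 2.16 and 3.28 with the hairpins. TMEM50A, a small membrane protein, had 37.0 and 37.5 in the controls and 26.0, 22.3 and 24.8 with the hairpins. TMEM59L and ZNF804A were close to each other as well (r = 0.995). Both shared with CLOCK, TNFRSF10C and TMEM50A the order shELK4_2, shELK4_3, shELK4_1 from low to high. TGIF2-C20orf24, at 26.7, 23.9 and 27.6 FPKM in shELK4_1, shELK4_2 and shELK4_3, was highest in shELK4_3 instead. KRTAP3-1 (r = 0.987 with TMEM59L and 0.974 with ZNF804A) did not share the order either. Its Poisson intervals, however, overlapped between the hairpins if a step is 1 fragment. The genes were picked by r over these same samples, so a shared order is not a separate result.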

How the data were processed

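RNA from the 5 samples was purified with poly(T) beads and sequenced on an Illumina HiSeq instrument. The authors deposited FPKM values per gene, which Cufflinks had calculated and scaled to the mapped reads of each sample. The submitters' processing notes name Trimmomatic 0.36, HISAT2 2.0.5, Cufflinks 2.2.1 and HTSeq 0.9.1. The genome build and the annotation are not given in the sources used here, so positions, exons and promoters are those of GENCODE release 44 and RefSeq on GRCh38. Of 20030 entries, 4 were dropped because 2 symbols occur more than once. Read counts are not part of FPKM, so precision rests on the spread between samples.

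Genes reaching 1 FPKM in 2 samples or more entered limma 3.58.1 in R 4.3.3 as log2(FPKM + 1), with the group as the only term, a trend in the moderated variance and Benjamini-Hochberg adjustment over all of them (threshold 0.05). This scale understates the change of low genes. The fit was also run on simulated data with independent noise of equal spread in both groups. That run does not cover the dependence of the calls on single samples. The members and lists were chosen with earlier results of these data known, and members are given without a test. The genes named are the members, their families, neighbours, the 2 to 4 genes of each list with the largest differences and the 3 most similar genes by correlation, and EPCAM and the other cell type markers, REST and the other keratins of chromosome 17 were added after their values were seen. Alternatives were a pseudocount of 0.1, no FPKM limit, median-of-ratios scaling, the replicate number as a block and each sample left out. Tables were made with Python 3.11.15, pandas 2.3.3 and scipy 1.17.1. Some values of 1 listed gene and of 1 neighbour are not reported here.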

Additional observations from a re-analysis of the deposited data

How the results depend on the processing

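The lower level of KRTAP3-1, TMEM59L and ZNF804A kept its direction under every alternative run, which the choice of genes without overlap fixes for most of them. With a pseudocount of 0.1, the difference went from −2.93 to −4.36 for KRTAP3-1 and from −1.07 to −1.51 for ZNF804A, since a smaller pseudocount compresses low values less. When a sample was omitted in turn, it lay between −3.14 and −2.75 for KRTAP3-1, −1.49 and −1.25 for TMEM59L, and −1.16 and −0.96 for ZNF804A. The log2 fold change of ELK4 lay between −1.34 and −1.18 with each sample left out, with adjusted p-values from limma of 0.0366 without shELK4_2 and of 0.0748, 0.0806, 0.30 and 0.452 without shELK4_1, shELK4_3, pLKO.1_2 and pLKO.1_1, and stayed at −1.26 with no FPKM limit, where the adjusted p was 0.114. That of KRTAP2-3 lay between −2.21 and −1.77 with each sample left out (adjusted p of 0.0134 to 0.624 from limma), that of GPATCH8 between 0.16 and 0.20, and that of TMEM59 between −0.60 and 0.07, the last without shELK4_2.

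Over all tested genes, 18 had an adjusted p under 0.05 from limma. This count was 0 with no FPKM limit, and 0 to 95 with each sample left out: 0 without either control or shELK4_1, 1 without shELK4_3 and 95 without shELK4_2. Among the other KRTAP genes the count was 0, with 0 to 1 when a sample was left out, the 1 being KRTAP2-3 without shELK4_2, and among the listed genes and neighbours it was 0, with 0 to 1 likewise, the 1 being ENO2 without shELK4_2. The cause of these changes was not tested. The replicate numbers are shared by the labels but mark separate samples, and no pairing was used. The deviations of same-numbered samples from their group means had r = 0.0776 and 0.0225. With 2 controls, whose deviations mirror each other, this check says little about a shared batch. With the replicate number as a block, shELK4_3 does not enter the group difference, since it is the only sample numbered 3. The log2 fold changes therefore equal those without shELK4_3. In this setting 1 gene of the KRTAP family (KRTAP2-3, log2 fold change −1.77, adjusted p = 0.049 from limma) and 1 of the lists (SCG2) passed, and the count over all genes was 22. Depth limits the KRTAP3-1 values of the knockdown samples and every KRTAP gene other than KRTAP2-3.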
